A study of Mus musculus with 6 samples.

Results

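The desmosome genes examined here are 10 genes for the proteins of the desmosome: the desmosomal cadherins Dsg2, Dsg3, Dsc2 and Dsc3, the plaque proteins Dsp, Jup, Pkp1, Pkp2 and Pkp3, and the membrane protein Perp. They were chosen by gene name among the non-control probes, which gave 19 probes for the 10 genes, out of 41174 probes for 28032 genes on the array. All 10 genes were measured well enough to be tested, among 18221 genes tested. The samples were thymic epithelial cells (TEC) from C57BL/6 mice aged 4 weeks, negative for the leukocyte antigen CD45 and positive for the adhesion molecule EpCAM. All groups carried the transgene Tg(Meis1-EGFP)FO156Gsat/Mmcd, in which regulatory sequence of the homeobox gene Meis1 on a bacterial artificial chromosome drives EGFP, so the gates follow the reporter and not the Meis1 protein. Meis1-high cells were small (low forward scatter) and bright for EGFP. Meis1-low cells were large (high forward scatter) with EGFP at an intermediate level, and Meis1-negative cells were small and lacked EGFP. Since Meis1-high and Meis1-low differ in size as well as in EGFP, those influences cannot be told apart. Each gate had 2 pools of 6 mice from separate experiments, and each pool was hybridised to 1 one-colour array, with 3 arrays on each of 2 slides.

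Desmosomes are spot-like junctions that hold neighbouring epithelial cells together. The desmogleins and desmocollins, calcium-dependent cadherins, cross the membrane and bind their partners on the next cell. Inside the cell, plakoglobin and the plakophilins join the cadherin tails to desmoplakin, which anchors keratin filaments. Stratified epithelia such as epidermis exchange one cadherin for another as cells leave the basal layer, whereas Dsg2, Dsc2 and Pkp2 are also found in simple epithelia. In the thymus, TEC form an epithelial network joined by desmosomes, and Dsg3 is the main target of autoantibodies in pemphigus vulgaris.

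Differences are given ± SE from a fit with 2 arrays per gate. Levels are log2 signals relative to the 75th percentile of the same array, so a difference of 1 is a 2-fold difference. Different probes bind with different strength, so levels are compared between arrays for 1 probe and never between genes. By the probe with the highest mean, which stands for each gene, all 10 desmosome genes had their highest mean level in Meis1-high. For Dsg3 that probe was well above background on both arrays of Meis1-high alone, so it could enter the test only if it was high there, and a second Dsg3 probe ran the other way. The median log2 difference of the 10 genes was 1.12 between Meis1-high and Meis1-low and 2.04 between Meis1-high and Meis1-negative, against medians of -0.15 and -0.10 over all genes tested. By the means, 10 of 10 were higher in Meis1-high in both comparisons, a direction seen in 44.7% and 46.4% of all genes. For 9 of 10 genes in each comparison, both Meis1-high arrays lay above both arrays of the other gate, which held for 22.7% and 19.3% of all genes. This count rests on the probe that stands for each gene. By some other probes of Dsg2 and Dsc2 the Meis1-high and Meis1-low arrays overlapped. No single gene passed the test: limma's moderated test with Benjamini-Hochberg adjustment called 0 desmosome genes and 0% of all genes in each of the 3 comparisons. An unadjusted p under 0.05 in limma was found for 1 of 10 genes from Meis1-low and 7 of 10 from Meis1-negative (12.9% and 10.5% of all genes). The 1 gene was Dsg3, which was also among the 7. A difference of over 2-fold was found for 5 of 10 genes from Meis1-low and 10 of 10 from Meis1-negative (15.9% and 18.2% of all genes). Without Dsg3, a choice made after seeing the data, the median of the 9 other genes was 0.92 from Meis1-low and 2.12 from Meis1-negative, 9 of 9 were higher in both, 8 of 9 did not overlap in either, and 4 and 9 differed by over 2-fold. With normexp background correction, which draws dim signals together, the medians of the 10 genes were 0.64 from Meis1-low and 1.46 from Meis1-negative. Jup, Pkp2 and Pkp3 then differed by 0.17, 0.16 and 0.38 from Meis1-low and by 0.75, 0.76 and 0.70 from Meis1-negative. In bulk RNA, fewer cells that express these genes and less RNA per cell cannot be told apart.

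**Figure D1:**
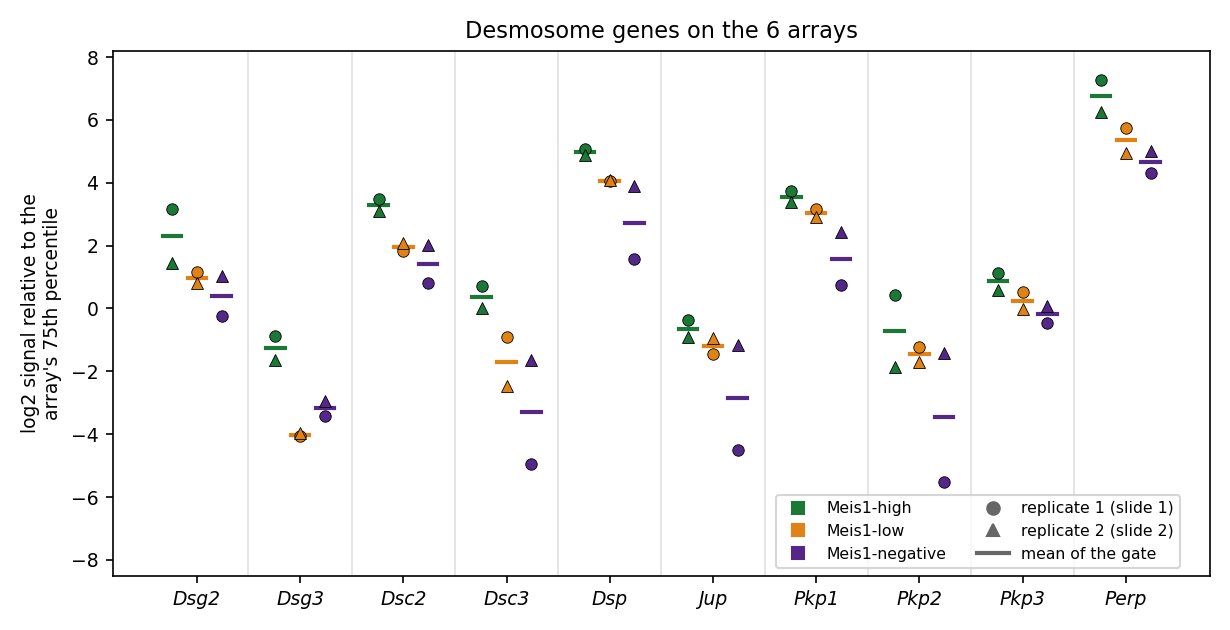
Level of each desmosome gene on every array, as log2 signal relative to the 75th percentile of the array. Colours are gates, circles and triangles are replicates 1 and 2 (slides 1 and 2), and bars are gate means of 2 arrays. The green Meis1-high points lie above the other gates for every gene but Pkp2, and heights of different genes cannot be compared.

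The arrays differed in ways that touch these values. The 75th percentile of the signal was lowest, at 73.3, for Meis1-high replicate 1 and highest, at 165.2, for the second Meis1-negative array, and 53.1% to 69.6% of spots were well above background. Of the 7 markers of epithelial identity (Epcam, Cdh1, Krt8, Krt18, Krt5, Krt14 and Foxn1), 7 were well above background on each of the 6 arrays. Their levels were not alike: the summed signal was 51 times the 75th percentile on Meis1-negative replicate 1 and 181 to 467 times on the other arrays. Meis1-negative replicate 1 stood apart: the summed signal of 15 tested thymocyte and T cell markers was 1170 times its 75th percentile, against 26.7 on Meis1-negative replicate 2 and 9.04 to 14 on the Meis1-high and Meis1-low arrays. All 15 were lower in Meis1-high than in Meis1-negative, and their part in the differences below was not tested. The summed signal of 8 pan-leukocyte markers was 88.5 and 55.7 on the Meis1-negative arrays, 16.5 and 14.4 on Meis1-high and 38 and 37.3 on Meis1-low. For 6 B cell markers it was 3.34 and 8.3, 2.62 and 2.18, and 6.46 and 5.62 in the same order. Leukocyte signal thus remains in Meis1-negative without replicate 1, and its part was not tested either. On Meis1-negative replicate 1, 9 of the 10 desmosome genes had their lowest level, and on Meis1-high replicate 1, the array with the lowest signal, all 10 had their highest. The share of all genes with such extremes was not counted. Without Meis1-negative replicate 1, the median difference between Meis1-high and Meis1-negative was 1.20 with 10 of 10 genes still higher. Without Meis1-high replicate 1, the median between Meis1-high and Meis1-low was 0.65 with 9 of 10 higher, and without Meis1-high replicate 2 it was 1.71.

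**Figure D2:**
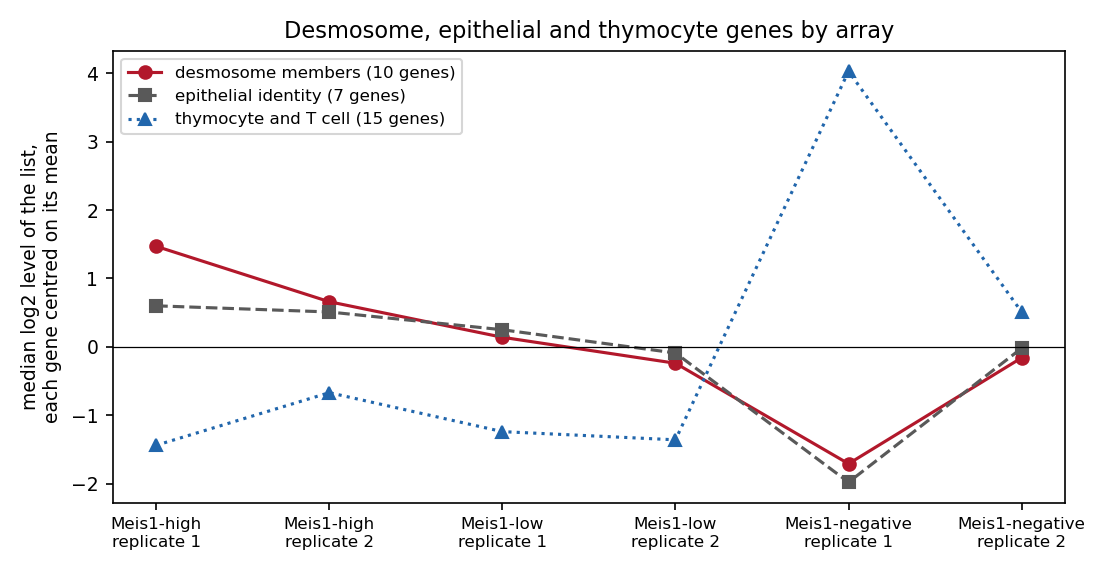
Median log2 level of 10 desmosome genes, 7 epithelial identity genes and 15 thymocyte and T cell genes on each array, each gene centred on its own mean over the 6 arrays. Desmosome genes stand at 1.47 and 0.66 on the Meis1-high arrays and at -1.71 on Meis1-negative replicate 1. On that array epithelial identity genes stand at -1.98 and thymocyte genes reach 4.03.

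Among the desmosomal cadherins the difference between Meis1-high and Meis1-low was 1.32 to 2.75 by the probes that stand for the genes. With the probes of a gene averaged it was 0.77 for Dsg2, 0.03 for Dsg3, 0.73 for Dsc2 and 2.06 for Dsc3. Their genes lie together in a cluster on chromosome 18. Dsg3, the desmoglein of the basal layers of stratified epithelium, had levels of -0.87 and -1.64 for the Meis1-high pools, -4.06 and -3.95 for the pools of Meis1-low, and -3.41 and -2.93 for those without EGFP. The gates did not overlap, and Dsg3 was the one desmosome gene with its lowest mean in Meis1-low. Its difference between Meis1-high and Meis1-low was 2.75 ± 0.62 (3.19 and 2.31 on slides 1 and 2), with an adjusted p = 0.253 in limma, the smallest among the 10 genes. This probe was well above background on neither Meis1-low array and on 1 of the 2 Meis1-negative arrays. The difference between Meis1-high and Meis1-negative was 1.91 ± 0.62 (adjusted p = 0.378 in limma). With normexp background correction the differences were 0.23 and 0.63 (adjusted p = 1 and 0.964), so their size depends on how the background of dim spots was handled.

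A second Dsg3 probe gave the opposite order. It is drawn from a skin cDNA clone, lies 7.24 kb downstream of the first, and was well above background on the 2 Meis1-low arrays alone. It could thus enter the test only if it was high in Meis1-low. Its levels were -5.09 and -5.96 for the Meis1-high pools, -2.92 and -2.75 for the pools of Meis1-low, and -5.56 and -4.79 for those without EGFP. The Meis1-low arrays stood above the other 4 by this probe, where they were the lowest by the other. With its dim signals raised to the dimmest signal that was marked as well above background, the downstream probe was at least 1.73-fold higher in Meis1-low than in Meis1-high and at least 2.24-fold higher than in Meis1-negative. Its difference between Meis1-high and Meis1-low was -2.69 ± 0.66 (-2.17 and -3.21 on the slides), with an adjusted p = 0.279 in limma over all probes. The direction of Dsg3 in Meis1-low therefore depends on the probe, and the mean of both probes differed by 0.03 between these gates.

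Dsc3, the desmocollin that accompanies Dsg3 in stratified epithelium, had levels of 0.72 and 0.03 for the Meis1-high pools, -0.91 and -2.46 for the pools of Meis1-low, and -4.95 and -1.63 for those without EGFP. Meis1-high lay above both other gates, while the arrays of Meis1-low and Meis1-negative overlapped and 1 of the 2 Meis1-negative arrays was well above background. The difference between Meis1-high and Meis1-negative was 3.66 ± 1.13 (5.67 on slide 1, 1.66 on slide 2; adjusted p = 0.360 in limma), and with normexp background correction it was 1.5 (adjusted p = 0.194). Without Meis1-negative replicate 1 it was 2.00, and without replicate 2, which leaves only the array rich in thymocyte markers, it was 5.33. Between Meis1-high and Meis1-low, Dsc3 differed by 2.06 ± 1.13 (1.63 and 2.49 on the slides; adjusted p = 0.496).

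Dsg2, the most widely expressed desmoglein, had levels of 3.15 and 1.46 for the Meis1-high pools, 1.15 and 0.81 for the pools of Meis1-low, and -0.23 and 1.04 for those without EGFP. Its Meis1-high arrays stood above the rest, the lower of them close to the highest array of the other gates. Dsc2, its usual desmocollin partner, had levels of 3.48 and 3.1 for the Meis1-high pools, 1.82 and 2.08 for the pools of Meis1-low, and 0.80 and 2.02 for those without EGFP. The Dsc2 arrays of Meis1-high stood apart from the other 4, which overlapped. Between Meis1-high and Meis1-low, Dsg2 differed by 1.32 ± 0.80 (1.99 and 0.65 on the slides) and Dsc2 by 1.34 ± 0.67 (1.66 and 1.02), with adjusted p = 0.539 and 0.455 in limma. All 4 probes of Dsg2 and all 3 of Dsc2 were higher in Meis1-high than in Meis1-low on both slides, by 0.45 to 1.32 and by 0.30 to 1.34. By some of the other probes, however, the arrays of these gates overlapped. One Dsg2 probe had 1.25 and -0.07 in Meis1-high against 0.16 and -0.62 in Meis1-low. A Dsc2 probe had -0.30 and 0.61 against -0.43 and 0.15. The lack of overlap thus depends on the probe for both genes.

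Desmoplakin, the link to keratin filaments, is encoded by Dsp on chromosome 13. It was read by 4 probes, of which 1 (mm9, chr13:38285480-38286579) is 60 bases long but spans 1100 bases of genome, so it crosses an intron. The others follow it at chr13:38287658-38287717, chr13:38289734-38289793 and chr13:38290121-38290180. By the probe nearest the 3′ end, which had the highest mean, Dsp had levels of 5.08 and 4.88 for the Meis1-high pools, 4.05 and 4.08 for the pools of Meis1-low, and 1.56 and 3.89 for those without EGFP. No gates overlapped, and Meis1-high differed from Meis1-low by 0.92 ± 0.84 (adjusted p = 0.693 in limma) and from Meis1-negative by 2.25 ± 0.84 (adjusted p = 0.428; 1.09 without Meis1-negative replicate 1). Without Meis1-negative replicate 2, which leaves only the array rich in thymocyte markers, the latter was 3.42. With normexp background correction it was 1.96 and passed the test (adjusted p = 0.0299 in limma). That setting called 304 of 18221 genes in this comparison, where the main one called 0.

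For Meis1-high against each other gate, the 4 Dsp probes agreed in direction but not in size. By the 3 probes ahead of the last one, the Meis1-low and Meis1-negative arrays overlapped. Those 3 probes are shown because the size of the Dsp difference between Meis1-high and Meis1-low follows the order of the probes along the transcript. They are the deposited 60-base probe sequences, 5′ to 3′ in the sense of the transcript, with no part marked.
Dsp probe 1: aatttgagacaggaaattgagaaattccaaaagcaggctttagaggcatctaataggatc
Dsp probe 2: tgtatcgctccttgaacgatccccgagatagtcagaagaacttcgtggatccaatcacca
Dsp probe 3: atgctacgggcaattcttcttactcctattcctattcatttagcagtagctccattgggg
On slide 1 the difference between Meis1-high and Meis1-low was 3.04, 2.40, 1.77 and 1.03 from probe 1 to probe 4. On slide 2 it was 1.55, 1.31, 1.03 and 0.80. It was thus smaller at each step towards the 3′ end on both slides, a pattern noticed after the values were seen. Of 357 genes with 4 tested probes on 1 strand, 5 had this pattern (1.4%) and 0 had the reverse. Between Meis1-high and Meis1-negative the order was not kept, at 3.53, 4.03, 4.90 and 3.52 on slide 1 and 1.14, 1.62, 1.31 and 0.99 on slide 2. Dsg2, also with 4 probes, did not show it either.

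**Figure D3:**
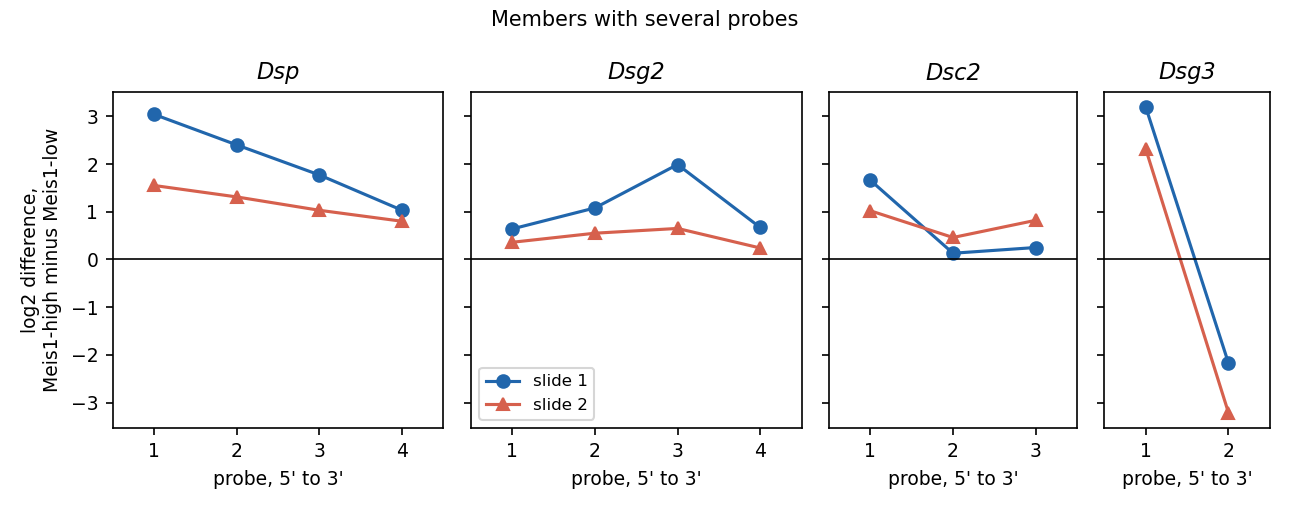
Log2 difference between Meis1-high and Meis1-low for each probe of the 4 desmosome genes with several probes, in order from the 5′ to the 3′ end, within slide 1 (circles) and slide 2 (triangles). Dsp declines from 3.04 to 1.03 on slide 1 and from 1.55 to 0.80 on slide 2, and the second Dsg3 probe lies below 0.

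Plakoglobin, encoded by Jup, is shared between desmosomes and adherens junctions. Its probe (mm9, chr11:100232695-100232754) had levels of -0.38 and -0.92 for the Meis1-high pools, -1.45 and -0.94 for the pools of Meis1-low, and -4.51 and -1.17 for those without EGFP. On slide 2 the 3 gates lay within 0.25 of each other, and the Meis1-negative probe was well above background on 1 of 2 arrays. Jup differed by 0.55 ± 1.06 between Meis1-high and Meis1-low (1.07 and 0.02 on the slides; adjusted p = 0.862 in limma) and by 2.19 ± 1.06 between Meis1-high and Meis1-negative (4.12 and 0.25; adjusted p = 0.530). Without Meis1-negative replicate 1 the latter was 0.52, and without replicate 2, which leaves only the array rich in thymocyte markers, it was 3.85. Between Meis1-low and Meis1-negative the difference without replicate 2 was 3.31.

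The RefSeq promoter table (GRCm38.p6, 250 bases before to 50 after the start of a gene) held an entry for 2 of the 10 genes, Dsp and Jup. The MEIS core motif TGACAG, on either strand, was in the Jup entry and not in the Dsp entry, and 19.2% of all 32851 promoters hold it. The stretch of the Jup promoter with the match is shown, since the gates were set by a Meis1 reporter, with the match in capitals on the opposite strand (chr11:100397791-100397850, minus strand).
Jup promoter: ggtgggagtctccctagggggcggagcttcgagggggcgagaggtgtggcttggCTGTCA
The E-box CAGGTG, bound by factors of the SNAI and ZEB families, was in the Dsp entry alone of the 2 (20.2% of all promoters), and the GC box GGGCGG was in both (35.7%). Neither held the AP-1 motif TGANTCA (7.81%) or the grainyhead motif AACCGGTT (0.146%). Matches describe the letters of these windows and show no binding.

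The plakophilins, armadillo proteins that gather cadherins and desmoplakin in the plaque, had differences between Meis1-high and Meis1-low of 0.53 to 0.75. Pkp1, the plakophilin of the upper layers of stratified epithelium (mm9, chr1:137768027-137768086), had levels of 3.74 and 3.38 for the Meis1-high pools, 3.16 and 2.90 for the pools of Meis1-low, and 0.76 and 2.43 for those without EGFP. Its gates did not overlap, and the step from Meis1-high to Meis1-low, 0.53 ± 0.73 (0.59 and 0.48 on the slides; adjusted p = 0.796 in limma), was smaller than that from Meis1-high to Meis1-negative, 1.97 ± 0.73 (2.98 and 0.95; adjusted p = 0.427). Pkp3, found through all layers of stratified epithelium (chr7:148276224-148276283), had levels of 1.13 and 0.60, 0.51 and -0.03, and -0.45 and 0.08 in Meis1-high, Meis1-low and Meis1-negative. Meis1-high lay above both other gates, which overlapped. Pkp3 had the smallest difference between Meis1-high and Meis1-negative of the 10 genes, 1.05 ± 0.62 (1.57 and 0.52; adjusted p = 0.618), and one of 0.62 ± 0.62 from Meis1-low, nearly alike on the slides (0.61 and 0.63).

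Pkp2, the plakophilin of simple epithelia and heart muscle (chr16:16272648-16272707), was the exception in the set. It had levels of 0.43 and -1.85 for the Meis1-high pools, -1.21 and -1.71 for the pools of Meis1-low, and -5.52 and -1.41 for those without EGFP. All 3 gates overlapped, 1 of the 2 Meis1-negative arrays was well above background, and on slide 2 the Meis1-high array was the lowest. Its difference between Meis1-high and Meis1-negative was 2.75 ± 1.36 (5.95 and -0.44 on the slides; adjusted p = 0.538 in limma), and that between Meis1-high and Meis1-low was 0.75 ± 1.36 (1.64 and -0.14; adjusted p = 0.851). Without Meis1-high replicate 1 the second became -0.39, so the direction of Pkp2 rests on that array.

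Perp, a tetraspan membrane protein needed for desmosome assembly and a target of the transcription factors encoded by Trp53 and Trp63, has 1 probe (mm9, chr10:18576697-18576756). It had levels of 7.27 and 6.26 for the Meis1-high pools, 5.75 and 4.95 for the pools of Meis1-low, and 4.30 and 5.0 for those without EGFP. Meis1-high stood above both other gates, which overlapped. Perp was 1.41 ± 0.69 higher in Meis1-high than in Meis1-low (1.52 and 1.31 on the slides; adjusted p = 0.445 in limma) and 2.12 ± 0.69 higher than in Meis1-negative (2.97 and 1.26; adjusted p = 0.378). Without Meis1-negative replicate 1 the latter was 1.77, and with normexp background correction it was 1.94 and passed the test (adjusted p = 0.0332 in limma). Under normexp 304 of 18221 genes passed in this comparison, against 0 in the main fit.

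Markers of cell types also differed between Meis1-high and Meis1-low. Of 8 markers of immature or basal medullary TEC (Krt5, Krt14 and Trp63 among them), 8 were higher in Meis1-high than in Meis1-low, with a median of 2.15 and summed signals of 484 and 501 against 91.6 and 125 times the 75th percentile. All 7 tested markers of tuft-like TEC were higher too, with a median of 2.91, and all 8 of mature medullary TEC were lower, with a median of -2.06. Of 8 cortical TEC markers 5 were higher, with a median of 1.13, and of 8 corneocyte-like markers 3 were higher, with a median of -0.11. Markers of several blood cells were mostly lower in Meis1-high: 5 of 5 erythroid (median -2.17), 7 of 8 dendritic cell and macrophage (-2.11), 5 of 6 B cell (-1.21) and 6 of 8 pan-leukocyte markers (-0.99). Thymocyte and T cell markers were lower for 9 of 15 (-0.27), and fibroblast and pericyte markers were higher for 6 of 9 (0.89). Of all genes tested, 44.7% were higher in Meis1-high than in Meis1-low. No marker was called, and their part in the desmosome differences was not tested.

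Within slide 2, which lacks the array rich in thymocyte markers, the median difference of the 10 genes was 0.72 between Meis1-high and Meis1-low and 0.97 between Meis1-high and Meis1-negative, against 1.57 and 3.18 on slide 1. The Meis1-negative array of slide 2 still had a pan-leukocyte sum of 55.7, against 14.4 for Meis1-high and 37.3 for Meis1-low on that slide. In each comparison 9 of 10 genes were higher in Meis1-high on both slides, against 31.6% and 28.4% of all genes, and Pkp2 was the exception in both. Of the 19 probes, 17 were higher in Meis1-high on both slides in each comparison, and the share over all probes was not counted. These counts and the slide medians include Dsg3 by its upstream probe, which passed the filter through Meis1-high alone. Both comparisons use the same Meis1-high arrays. With slide as a block the differences stay the same by construction and 0 of the 10 genes passed. The smallest adjusted p among them was 0.248 in limma, for Dsg3 by its upstream probe.

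**Figure D4:**
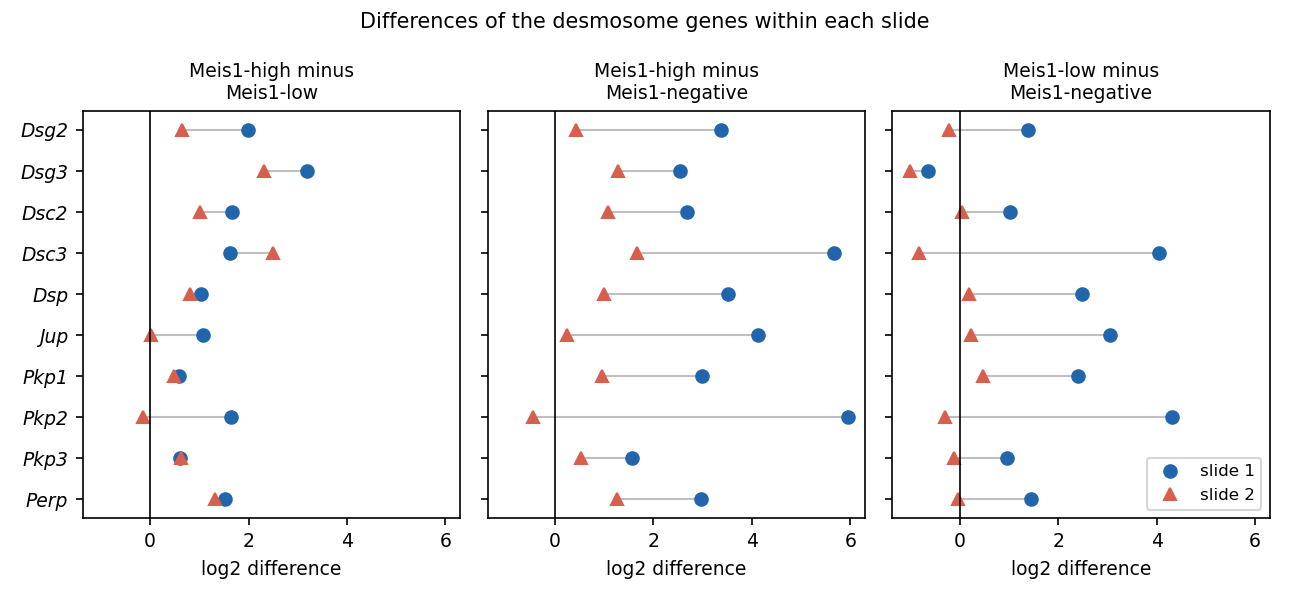
Log2 difference of each desmosome gene within slide 1 (circles) and slide 2 (triangles) for the 3 comparisons. Differences from Meis1-low are close on both slides for Pkp1, Pkp3, Perp and Dsp, those from Meis1-negative are wider on slide 1, and Meis1-low minus Meis1-negative lies around 0 on slide 2.

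Between Meis1-low and Meis1-negative the desmosome genes had a median difference of 1.02, with 9 of 10 higher in Meis1-low by the means (52% of all genes). The slides did not agree on it. The median was 1.92 on slide 1 and -0.08 on slide 2, and without Meis1-negative replicate 1 it was -0.04 with 4 of 10 genes higher. Both Meis1-low arrays lay above both Meis1-negative arrays for 2 genes, Dsp and Pkp1 (23.4% of all genes). On both slides 4 genes were higher in Meis1-low (33.8%), 5 were higher by over 2-fold (22.7%), and 0 had an unadjusted p under 0.05 in limma (8.08%). Adjusted p in limma lay between 0.608 and 0.862. Dsg3 by its upstream probe lay the other way, at -0.65 and -1.02 on the slides, but at 0.39 with normexp background correction.

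Other genes of the desmosome and its cornified form were mostly lower in Meis1-high than in Meis1-low by their means. Of 12 tested, 3 were higher and 9 lower in Meis1-high than in Meis1-low, where 44.7% of all genes were higher. The median was -0.38, with 0 called in either direction. On both slides 5 were lower and 2 were higher, Pkp4 among the latter at 0.88 ± 0.65. The desmogleins of the upper, differentiating layers of epidermis, chosen here after their values were seen, lay on the side of Meis1-low: Dsg1a had levels of 1.5 and 1.6 in Meis1-high against Meis1-low levels of 2.84 and 2.58, and Dsg1b 1.90 and 1.19 against 2.82 and 2.28. The differences were -1.16 ± 0.85 and -1.01 ± 0.71 (adjusted p = 0.616 and 0.604 in limma). Dsg1a and Dsg1b are close copies of each other, so their signals may not be separate. Of other genes of the upper layers, Dsc1 differed by -0.35 ± 1.07 from Meis1-low and Pkp1 by 0.53 ± 0.73, so not all lay on that side. Against Meis1-negative, 8 of 12 had the higher mean in Meis1-high, and the median was 0.49 (0.06 without Meis1-negative replicate 1). Dsc1, the desmocollin of the upper epidermal layers, differed by 2.69 ± 1.07 and Pkp4, a relative of the plakophilins, by 1.33 ± 0.65, while Evpl, an envelope plakin, differed by -1.43 ± 1.03 and Tchp, a keratin-binding protein, by -0.84 ± 0.72. Without Meis1-negative replicate 1 these differences were 1.02 for Dsc1, 1.07 for Pkp4, 0.14 for Evpl and -0.33 for Tchp, so the direction of Evpl rests on that array.

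Keratins form the filaments that desmosomes anchor. Of 12 keratins, 8 were higher in Meis1-high than in Meis1-low, with a median of 0.60. The basal keratins Krt5 (7.4 and 7.38 in Meis1-high against 5.23 and 5.29 for Meis1-low) and Krt14 (6.67 and 6.92, 5.5 and 4.59) differed by 2.13 ± 0.79 and 1.75 ± 0.82, with adjusted p = 0.332 and 0.428 in limma. Krt8 and Krt18, a pair found in simple epithelium, differed by -0.04 ± 0.81 and 0.61 ± 0.80, and Krt20 and Krt15 lay on the other side at -2.49 ± 0.83 and -1.48 ± 0.90. Against Meis1-negative, 11 of 12 lay higher in Meis1-high, the median difference being 2.18 (1.02 without Meis1-negative replicate 1), with Krt10 at 3.43 ± 1.25 and Krt1 at 3.17 ± 1.27. Without that array Krt10 was at 1.54 and Krt1, well above background on 1 of the 2 Meis1-negative arrays, at 1.02. No keratin passed the test in any comparison.

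Hemidesmosome genes, which fix keratin filaments to the basement membrane, were mostly higher in Meis1-high. Of 9, 8 were higher in Meis1-high than in Meis1-low, with a median of 1.34 (1.42 on slide 1 and 1.58 on slide 2), and 9 were higher than in Meis1-negative, with a median of 1.96. That median was 2.24 on slide 1, 1.36 on slide 2 and 1.44 once Meis1-negative replicate 1 was left out. The laminin gene Lama3 differed by 2.21 ± 0.90 from Meis1-low and by 3.20 ± 0.90 from Meis1-negative (2.05 without Meis1-negative replicate 1). The integrin gene Itgb4 differed by 1.29 ± 0.66 and 1.08 ± 0.66, and the collagen gene Col17a1 by -0.53 ± 0.79 and 0.98 ± 0.79 (-0.02 for the latter without Meis1-negative replicate 1). No hemidesmosome gene was called.

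Adherens junction genes had a median of 0.42 between Meis1-high and Meis1-low, with 7 of 12 higher, and of 1.17 between Meis1-high and Meis1-negative, with 12 of 12 higher (0.33 and 9 of 12 without Meis1-negative replicate 1). Cdh1, which encodes E-cadherin, had levels of 0.84 and 1.03 for the Meis1-high pools, 0.64 and 0.43 for the pools of Meis1-low, and -0.33 and 0.50 for those without EGFP, a difference of 0.40 ± 0.62 from Meis1-low. Ctnnb1, which encodes beta-catenin, differed by -0.26 ± 0.58 from Meis1-low and 0.04 ± 0.58 from Meis1-negative, and Nectin4 by -0.05 ± 0.86 and 0.29 ± 0.86 (-0.76 for the latter without Meis1-negative replicate 1). Afdn and Vcl, which tie junctions to actin, differed by 1.79 ± 0.78 and 1.48 ± 0.93 from Meis1-low and by 2.67 ± 0.78 and 1.94 ± 0.93 from Meis1-negative (2.14 and 0.74 without Meis1-negative replicate 1). The 7 epithelial identity genes had a median of 0.40 from Meis1-low and 1.63 from Meis1-negative (0.66 without Meis1-negative replicate 1). The medians of these lists are descriptions, and their difference from the median of the desmosome genes was not tested.

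**Figure D5:**
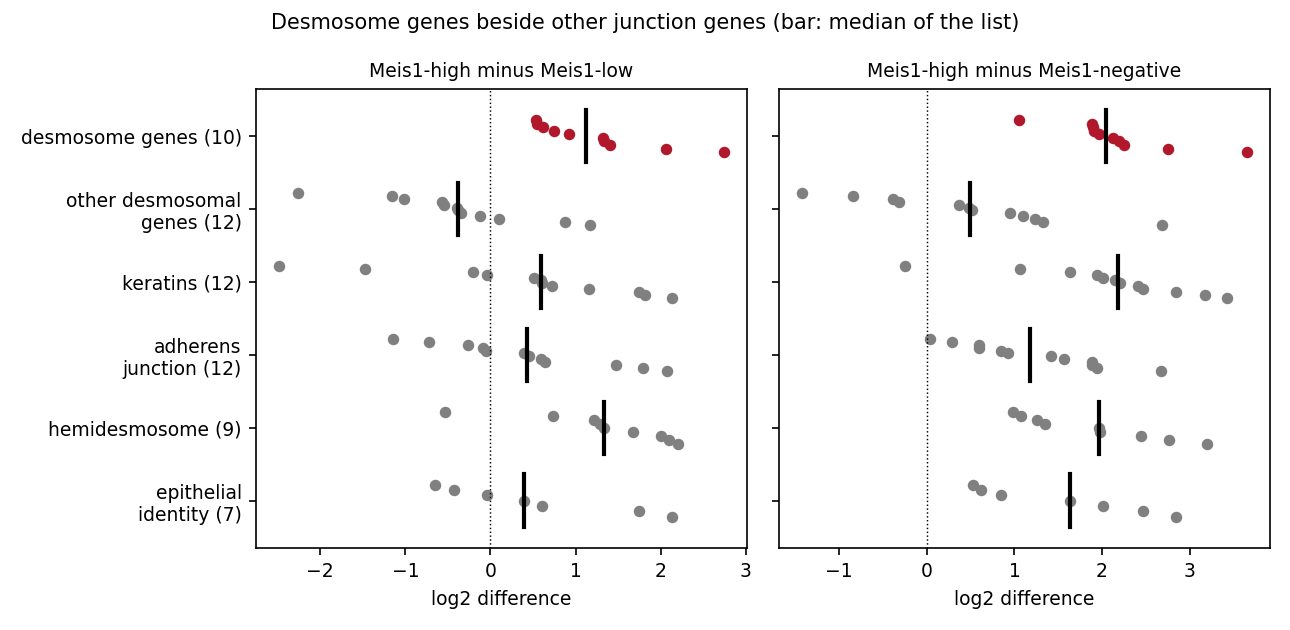
Log2 difference of every tested gene in 6 lists, between Meis1-high and Meis1-low (left) and between Meis1-high and Meis1-negative (right), with the number of genes in brackets and a bar at the median. All 10 desmosome genes, Dsg3 by its upstream probe, lie above 0 in both panels, and the left panel shows the other desmosomal genes around -0.38.

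Regulators of desmosome genes and sheddases of their cadherins were mixed, with 7 of 14 tested higher in Meis1-high than in Meis1-low and 10 of 14 higher than in Meis1-negative, and 0 called. Trp63, a regulator of stratified epithelia, had levels of 4.70 and 5.49 for the Meis1-high pools, 3.93 and 3.81 for the pools of Meis1-low, and 1.85 and 3.83 for those without EGFP. Trp63 differed by 1.22 ± 0.80 from Meis1-low and by 2.26 ± 0.80 from Meis1-negative (adjusted p = 0.573 and 0.410 in limma). Without Meis1-negative replicate 1 the latter was 1.26. Snai2, a repressor of the Snail family, differed by 1.97 ± 0.62 from Meis1-low (1.64 and 2.30 on the slides) and by 2.29 ± 0.62 from Meis1-negative (2.45 and 2.12), with adjusted p = 0.291 and 0.330. Zeb1 and Zeb2, repressors of epithelial genes, each differed by -3.53 from Meis1-negative (SE 1.69 and 1.03), with levels of 3.69 and 3.48 on Meis1-negative replicate 1, the array with the thymocyte signal, and of 1.08 and 0.32 on replicate 2. Without replicate 1 they differed by -2.23 and -1.95.

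Within the set, Dsp, Dsc2, Pkp1 and Dsg2 had profiles closest to the mean of the 10 genes: after each gene was centred on its own mean, their root mean square distance from the mean profile over the 6 arrays was 0.30 to 0.34 on the log2 scale. Dsg3 (0.89), Pkp2 (0.88) and Dsc3 (0.82) were farthest, and the median over all genes tested was 1.32. Each of the 10 genes is part of that mean profile, which by construction lowers their distances beside that median. The 5 other genes nearest to the mean profile were 1700024G13Rik (0.10), the interferon-induced gene Oasl2 (0.12), the corepressor gene Ctbp2 (0.12), Apol9b (0.15) and Stox2 (0.16). A distance under 0.5 was found for 461 genes outside the set, of 18221 tested, so many genes had a profile of this kind. The arrays share the amplification, the 2 slides and the scaling, and 6 arrays limit what a profile can tell.

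Replicate spread set the precision of these values. The median SD between the 2 arrays of a gate over the 10 genes was 0.44 for Meis1-high (0.47 over all genes), 0.30 for Meis1-low (0.41) and 1.04 for Meis1-negative (0.76). In Meis1-negative the second array gave the higher value for all 10 genes, with a median gap of 1.47 (0.21 over all genes). In Meis1-high it did so for 0 of 10, with a median gap of -0.62 (0.06 over all genes).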

How the data were processed

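The data were 6 one-colour Agilent whole mouse genome arrays, labelled with Cy3 from 10 ng of amplified RNA per the labels. Per the file headers, the deposited intensity was read with Agilent Feature Extraction 9.5.3.1 (probe positions on mm9), background-subtracted and detrended within each array, with 15.5% to 28.2% of spots at a surrogate value. The authors' deposited value table holds log2 values, each array scaled and each probe set to a median of 0, by methods not given in the sources used here, with column medians from -0.169 to 0.154.

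From the intensity, control spots and spots marked as outliers were left out, log2 values of a probe were averaged, and the 75th percentile of the array was subtracted. Probes marked well above background (13 times its SD) on all arrays of 1 or more gates entered the test (26590 probes). Names were updated through RefSeq, and the probe with the highest mean stood for a gene. Dsg3 by its upstream probe passed the filter through Meis1-high alone, and its downstream probe through Meis1-low alone. limma 3.58.1 in R 4.3.3 fitted 1 mean per gate over all 6 arrays (3 residual and 4.33 prior degrees of freedom), with a threshold of 0.05 on the adjusted p, and was tested on simulated data. Figures used Python 3.11.15 with matplotlib 3.10.9.

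Slide, scan and replicate number coincide. Replicate differences correlated across genes at 0.209 (Meis1-high with Meis1-low), 0.128 (Meis1-high with Meis1-negative) and 0.125 (Meis1-low with Meis1-negative), and the labels state no pairing. Genes named were the 10 members, from each list the 2 largest and 2 smallest differences between Meis1-high and Meis1-negative, 6 fixed genes and the 5 genes of nearest profile; Dsg1a and Dsg1b were added after their values were seen. 1 gene that this rule names is not reported here. The members and lists were chosen with earlier results of these data known.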

Additional observations from a re-analysis of the deposited data

How the results depend on the processing

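The median difference of the desmosome genes stayed above 0 between Meis1-high and both other gates under every alternative run: normexp background correction, quantile and median scaling, no filter, a filter on 4 arrays, averaged probes, all probes, the replicate block, array weights, the authors' values, outlier spots kept and each array left out. With an array left out it ran from 1.20 to 2.67 against Meis1-negative and from 0.65 to 1.71 against Meis1-low, and otherwise from 1.46 to 2.12 and from 0.64 to 1.27. Meis1-low minus Meis1-negative ran from -0.04 (without Meis1-negative replicate 1) to 1.74 (without replicate 2). The replicate block, which is also the slide, called 0 genes in each comparison and changed no call. The filter on 4 arrays dropped Dsg3.

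Normexp called 304, 230 and 122 of 18221 genes tested (Meis1-high minus negative, high minus low, low minus negative). Among the desmosome genes it made 2 calls: Dsp at 1.96 (adjusted p = 0.0299 in limma) and Perp at 1.94 (adjusted p = 0.0332), both against Meis1-negative. Median scaling called 74 genes in the first and 13 in the third. Leaving out an array called 0 to 969, 0 and 0 to 1283 genes, and 0 to 4 desmosome calls. The 4 were without Meis1-negative replicate 2, the arm then resting on the array with thymocyte signal, its lone sample assumed to vary like the other gates: Dsc3 at 5.33, Dsp at 3.42 and Jup at 3.85 for Meis1-high minus Meis1-negative, and Jup at 3.31 for Meis1-low minus Meis1-negative (adjusted p from 0.0361 to 0.0443). For Meis1-low minus Meis1-negative, Dsg3 became 0.39 with normexp and 0.75 as the mean of its probes, and without Meis1-negative replicate 1 Dsg2 became -0.05, Dsc2 -0.08, Dsc3 -0.05, Jup -0.03 and Pkp2 -0.05 (without replicate 2 they were 1.22, 1.15, 3.27, 3.31 and 4.06). Pkp2 for Meis1-high minus Meis1-low became -0.39 without Meis1-high replicate 1 and 1.90 without replicate 2. With no filter the median of all genes moved by 0.27, 0.34 and -0.17 in the 3 comparisons and with normexp by 0.18 in the first and 0.12 in the third. The cause of these shifts was not tested. The number of arrays, 2 per gate, and probes near background (Dsg3) limit precision.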
